A study of Mus musculus with 12 samples.

Results

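Graded effects of housing temperature on the liver were described in the 8 sequencing libraries, of 12 in the series, that held no counts of H2-Ea-ps. H2-Ea-ps is the class II major histocompatibility gene Ea, which mice of the C57BL/6 background do not transcribe. The 8 libraries were chosen by a measured value and not by a label: each had 0 counts of this gene, and the other 4 had 134 to 248. In these 8, expression of every gene was fitted as a straight line on housing temperature. All mice were wild type and carried orthotopic mammary tumours of E0771 cells, a mouse breast carcinoma line. They had been acclimatised for 1 week to climate chambers at 6 °C, 22 °C or 29 °C with free access to food, and livers were taken on day 21. The 8 libraries were numbers 2, 3 and 4 at 6 °C, 5 and 6 at 22 °C and 10, 11 and 12 at 29 °C. The labels name both Balb/C and C57Bl6/J hosts without saying which animal was which, so no strain can be assigned to a library. They do not say either that each library came from its own animal, so the p-values describe only how far these libraries spread. The split was the same for Ifi206 and Trim12a, a pair of innate immune genes, which read 2.65 to 7.96 and 10.4 to 19.7 CPM in the 8 libraries and had 0 counts in the other 4 (CPM is a gene's counts scaled to library size, here over all 12). This pair was named after its values were seen and gives no separate support for the split.

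A mouse at 29 °C spends little energy on keeping warm, at 22 °C it is under mild cold stress, and at 6 °C it must raise heat production and food intake strongly. The liver takes part by adjusting amino acid breakdown, glucose output, lipid handling and thyroid hormone activation, and by secreting hormones. Fgf21, which is named in the title of the series, is such a hormone: it is induced in hepatocytes by fasting and by nutrient stress, and acts through FGF receptors with the co-receptor beta-klotho.

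The libraries were liver by their content and differed in some measures besides temperature. Albumin (Alb) stood at 59085 to 146790.0 CPM (TMM-scaled over the 8, as are the values that follow), and 5 of 9 mammary epithelial markers (Krt5, Wap, Csn2, Csn3 and Elf5) had 0 counts. The 9 together summed to 431 to 660 CPM, nearly all from Krt8, Krt18 and Erbb3, with Krt14 at 1 count in 1 library. Total counts lay between 7615585 and 19001126, so that 3 counts correspond to 0.158 to 0.394 CPM, counting error alone. The abundant noncoding RNA Gm26917 took 0.667% and 0.606% of counts at 22 °C, 1.66% in library 3 and 5.27% to 6.34% in the other 5 libraries. Mitochondrial mRNA was high in the same 3 libraries, at 3.72% to 4.70% of counts against 1.03% to 1.76%. Library 3 also differed in clock genes: Dbp, a clock output factor, read 5.47, 45.0 and 6.39 CPM at 6 °C, 0.710 and 0.294 CPM at 22 °C and 2.12, 4.44 and 7.38 CPM at 29 °C. Library 11 was alone in holding Akp3, an intestinal phosphatase, at 266 CPM. The first principal component of the 8 libraries held 32.8% of the variance and placed the 29 °C libraries (39.2 to 52.8) apart from all 5 others (-39.1 to -11.6). The second, with 23.1%, placed both 22 °C libraries (-41.7 and -34.8) below the other 6 (-13.1 to 55.8).

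A small set of genes followed temperature along a line. Of 15173 genes tested, 117 (0.771%) were called, 55 higher (0.362%) and 62 lower (0.409%) with rising temperature, at an adjusted p under 0.05 in edgeR's quasi-likelihood test. The log2 change of the fitted line from 6 to 29 °C, used throughout as the size of a trend, had a median of 0.02 over all tested genes and a median absolute size of 1.42 over the 117, of which 110 were protein-coding. In 82 of the 117 the libraries were in strict order, every 6 °C library on one side of both 22 °C libraries and these on one side of every 29 °C library. In such bulk samples, fewer cells of a type and less RNA per cell cannot be told apart. A strict order was found in 399 (2.63%) of all tested genes, 193 rising (1.27%) and 206 falling (1.36%). Library sizes taken without mitochondrial genes, Gm26917 and the 10 most abundant genes gave 94 higher and 51 lower genes in place of 55 and 62.

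The number of calls rested on single libraries. Leaving out library 2, 3 or 4 at 6 °C gave 39, 72 and 13 called genes. Leaving out library 5 or 6 at 22 °C gave 138 and 247, and leaving out library 10, 11 or 12 at 29 °C gave 11, 18 and 19. Of the 117 genes, 7 were called in all 8 of these reduced fits, 4 in 6 or 7 of them and 106 in fewer than 6. The direction was the same for all 117 in each of 20 alternative fits that could be made for the gene. At the edge of the threshold, Cth (log2 change -1.59, adjusted p = 0.0496) was the last gene inside and Slc25a23 (-0.76, adjusted p = 0.0504) the first outside.

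Fgf21 rose along the temperature range, with most of its rise above 22 °C. It read 0, 0.759 and 0 CPM at 6 °C, 2.40 and 0.882 CPM at 22 °C and 41.7, 24.3 and 26.6 CPM at 29 °C. Libraries 2 and 4 held 0 counts, and all 29 °C libraries stood far above the rest. Library 6 at 22 °C (0.882 CPM) lay barely above library 3 at 6 °C (0.759 CPM), with few counts in each. The strict order of Fgf21 rests on this small gap. The means were 0.253 ± 0.438, 1.64 ± 1.07 and 30.8 ± 9.42 CPM at 6, 22 and 29 °C (SD, n = 3, 2 and 3). The fitted trend was called (log2 change 7.49, SE 1.12, adjusted p = 0.0288), and its size depends on how zero counts are treated. Without library 3, the only 6 °C library with counts, the fitted change was 13.7. On log2(CPM + 1) the slope was 4.27 over the range (exact permutation test over 560 assignments of the libraries, two-sided p = 0.0179, where 0.00357 is the smallest possible). The difference of 22 °C over 6 °C was 2.47 (adjusted p = 0.192) on the log2 scale and that of 29 °C over 22 °C was 4.21 (adjusted p = 0.00917). In the same edgeR fit with 3 group means, the 22 °C level lay off the line by -2.18 (SE 0.72, adjusted p = 0.0863), which was not called. The call was lost without a filter on low counts (0.0742) and without library 2 (0.0754), 4 (0.110), 10 (0.0895) or 12 (0.0699), by adjusted p from the same edgeR test, while the permutation p stayed between 0.00476 and 0.0357 when single libraries were left out. Klb, which encodes the co-receptor beta-klotho, read 51.5, 55.8 and 64.7 CPM at 6 °C, 48.7 and 52.1 CPM at 22 °C and 51.7, 47.8 and 56.2 CPM at 29 °C and was not called (adjusted p = 0.619).

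The promoter of Fgf21 is printed because 2 of 4 short motifs looked for in the strictly ordered genes occur in it. The 300 bases run from 250 before to 50 after the start site (GRCm38.p6, RefSeq, chr7:45615441-45615740, minus strand), and capitals mark CACGTG, the E-box bound by basic helix-loop-helix factors, and TTGCATCA, the reverse complement of TGATGCAA, which is the core of elements bound by ATF4 with C/EBP partners. Promoters of 2 other rising genes with CACGTG, Gadd45b (chr10:80929841-80930140, plus strand) and Dusp1 (chr17:26508423-26508722, minus strand), and of the falling gene A1bg (chr15:60921221-60921520, minus strand), are set beside it.
Fgf21: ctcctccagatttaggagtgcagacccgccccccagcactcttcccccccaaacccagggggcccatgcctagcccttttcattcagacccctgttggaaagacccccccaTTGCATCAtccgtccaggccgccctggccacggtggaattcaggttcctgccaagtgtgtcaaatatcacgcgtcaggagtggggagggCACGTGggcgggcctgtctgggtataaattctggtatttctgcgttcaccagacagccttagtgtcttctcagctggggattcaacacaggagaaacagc
Gadd45b: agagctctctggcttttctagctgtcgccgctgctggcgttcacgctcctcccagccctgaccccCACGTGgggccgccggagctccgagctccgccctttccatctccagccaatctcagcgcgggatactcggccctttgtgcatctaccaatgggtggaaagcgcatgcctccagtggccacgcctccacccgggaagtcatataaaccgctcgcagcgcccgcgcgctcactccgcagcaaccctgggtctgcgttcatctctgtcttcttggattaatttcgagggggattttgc
Dusp1: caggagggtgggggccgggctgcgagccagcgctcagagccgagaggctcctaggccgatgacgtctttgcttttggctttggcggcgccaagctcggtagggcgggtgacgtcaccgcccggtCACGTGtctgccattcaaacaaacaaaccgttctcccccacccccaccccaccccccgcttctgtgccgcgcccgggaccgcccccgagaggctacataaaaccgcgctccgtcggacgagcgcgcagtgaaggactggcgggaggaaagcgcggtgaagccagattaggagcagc
A1bg: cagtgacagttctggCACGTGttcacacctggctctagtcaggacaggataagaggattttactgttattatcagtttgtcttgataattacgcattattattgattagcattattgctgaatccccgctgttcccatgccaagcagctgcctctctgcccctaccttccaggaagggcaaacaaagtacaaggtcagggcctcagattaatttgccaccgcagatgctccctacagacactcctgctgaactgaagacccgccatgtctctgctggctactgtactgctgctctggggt

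In these windows CACGTG starts 50 bases before the start site of Fgf21, 185 before that of Gadd45b, 126 before that of Dusp1 and 235 before that of A1bg, and the ATF4-type motif starts 139 bases before that of Fgf21. Counted on both strands, CACGTG was present in 6 of 46 promoters (13%) of the 42 strictly ordered rising genes and in 4 of 40 (10%) of the 40 falling genes, of which 36 and 34 genes matched a promoter by symbol. Over all 32851 promoters of this length the share was 7.15%. TGATGCAA was found in 1 rising promoter (2.17%), that of Fgf21, and in 0 falling ones, against 0.895% of all. TTATGTAA, the D-box bound by Dbp and its relatives, was in 1 rising (Inhba) and 1 falling (Ugt2b1) promoter, against 0.938% of all, and the AP-1 motif TGACTCA in 0 of both, against 5.2% of all. The motifs do not overlap each other in the printed windows. A match describes these letters and is no evidence of binding.

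The 7 genes called in every fit with a library left out were Txnip, Gask1a, Inhba and Slc34a2, which rose, and Prodh, Tlcd2 and A1bg, which fell. They were singled out by this stability after their values were seen. Txnip, a thioredoxin-binding protein induced by glucose, had the lowest p of all genes and read 84.7, 98.5 and 66.2 CPM at 6 °C, 261 and 230.2 CPM at 22 °C and 556, 368 and 630.3 CPM at 29 °C (log2 change 2.59, SE 0.24, adjusted p = 0.00362). Its 3 groups did not overlap, and both 22 °C libraries lay between the others. Inhba, the subunit of activin A, read 13.4, 13.2 and 6.47 CPM at 6 °C, 34.7 and 33.2 CPM at 22 °C and 49.4, 53.7 and 40.8 CPM at 29 °C (log2 change 2.15, SE 0.26, adjusted p = 0.00974). Activin A is a secreted ligand of the TGF-beta family, and here the difference of 22 °C over 6 °C, 1.64 (adjusted p = 0.00753) on the log2 scale, was called and that of 29 °C over 22 °C, 0.50 (adjusted p = 0.187), was not. Gask1a, a Golgi-associated kinase-like protein, read 4.45, 4.55 and 3.91 CPM at 6 °C, 11.2 and 16.2 CPM at 22 °C and 23.0, 16.9 and 19.7 CPM at 29 °C (log2 change 2.22, SE 0.23, adjusted p = 0.00445). Slc34a2, a sodium-phosphate cotransporter, read 3.31, 1.67 and 1.28 CPM at 6 °C, 7.63 and 10.2 CPM at 22 °C and 24.1, 12.0 and 24.9 CPM at 29 °C (log2 change 3.32, SE 0.39, adjusted p = 0.00952). Library 11 was the lowest of the 29 °C libraries for Gask1a, Slc34a2 and Txnip.

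Among the stable falls was Prodh, the mitochondrial proline dehydrogenase that starts proline breakdown. Prodh read 221, 234 and 208 CPM at 6 °C, 115 and 112 CPM at 22 °C and 70.8, 66.2 and 93.4 CPM at 29 °C (log2 change -1.51, SE 0.16, adjusted p = 0.00445). Its 3 groups did not overlap, and both the difference of 22 °C over 6 °C, -0.96 (adjusted p = 0.00818) on the log2 scale, and that of 29 °C over 22 °C, -0.56 (adjusted p = 0.0275), were called. Tlcd2, a TLC-domain membrane protein, read 73.8, 66.9 and 68.2 CPM at 6 °C, 35.6 and 39.6 CPM at 22 °C and 29.8, 19.9 and 31.4 CPM at 29 °C (log2 change -1.35, SE 0.17, adjusted p = 0.0135). A1bg, a secreted immunoglobulin-domain plasma glycoprotein, read 491, 224 and 863 CPM at 6 °C, 115 and 89.7 CPM at 22 °C and 21.1, 45.2 and 27.8 CPM at 29 °C (log2 change -3.96, SE 0.47, adjusted p = 0.0135). Library 4 was the highest and library 3 the lowest of the 6 °C libraries for A1bg, and even library 3 lay above both 22 °C libraries. Txnip, Gask1a, Inhba, Tlcd2 and Prodh were called in all 20 alternative fits, whereas Slc34a2 and A1bg lost their call in all 12 libraries without a term for H2-Ea-ps. Of the 117 genes, only Txnip (adjusted p = 0.0482, edgeR) passed a test against a minimum absolute log2 change of 1.

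**Figure D1:**
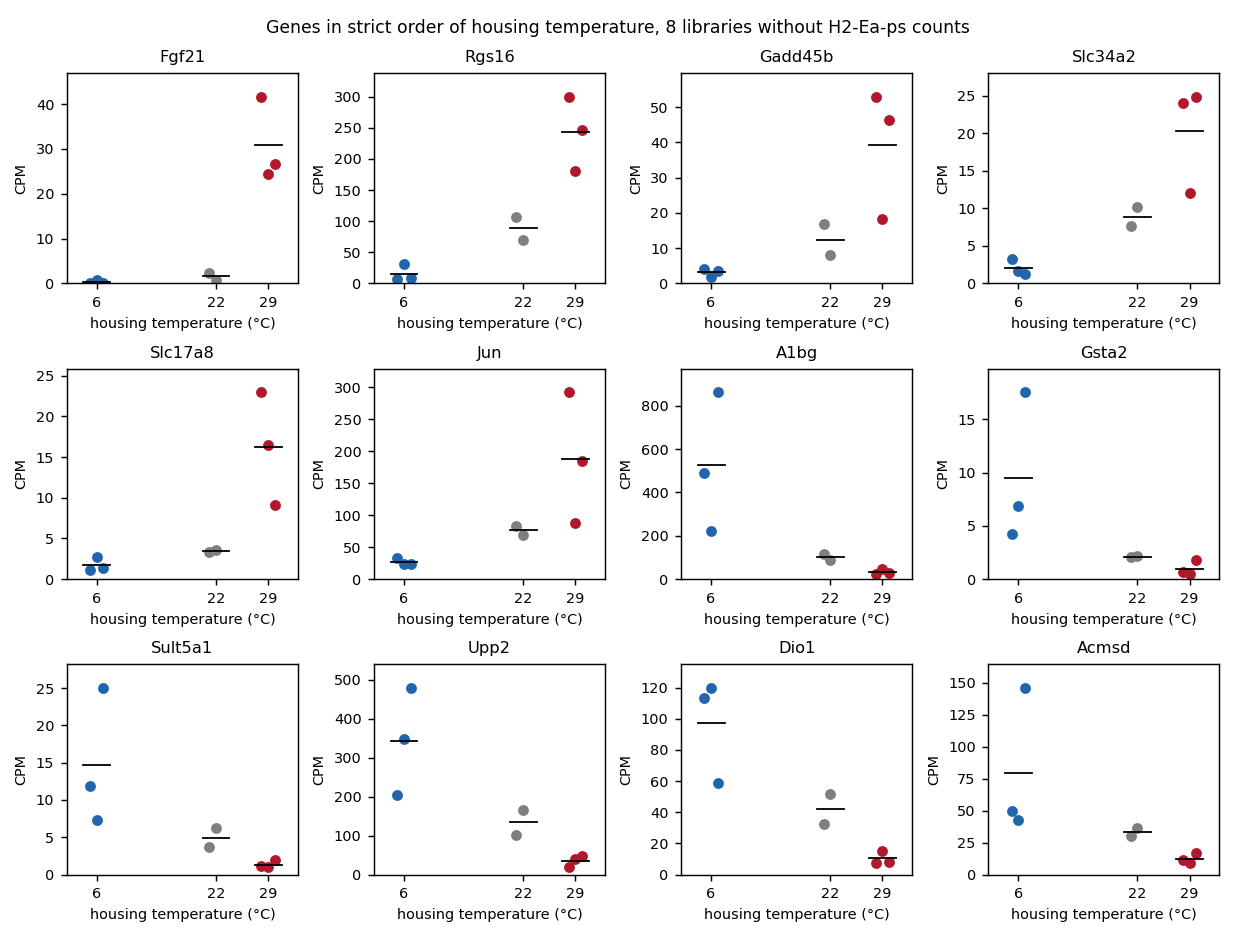
CPM of the 6 largest rises and 6 largest falls among called genes in strict order of temperature, against housing temperature in °C, with 1 point per library and a line at each group's mean (3, 2 and 3 libraries). In every panel both 22 °C libraries lie between the 6 °C and the 29 °C libraries, and Fgf21 stays at or below 2.40 CPM up to 22 °C and reaches 24.3 to 41.7 CPM at 29 °C.

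After Fgf21, the largest rises by the naming rule were Rgs16, Gadd45b, Slc34a2, Slc17a8 and Jun, and Dusp1 was named from the glucocorticoid list. Rgs16, a regulator that shortens G-protein signalling, read 7.51, 30.5 and 8.14 CPM at 6 °C, 107 and 69.9 CPM at 22 °C and 299.9, 180.1 and 247 CPM at 29 °C (log2 change 3.92, SE 0.52, adjusted p = 0.0198). Gadd45b, a growth arrest and DNA damage-inducible gene, read 4.07, 1.90 and 3.43 CPM at 6 °C, 17.0 and 7.94 CPM at 22 °C and 53.0, 18.4 and 46.4 CPM at 29 °C (log2 change 3.63, SE 0.48, adjusted p = 0.0198). Jun, an immediate early AP-1 factor, read 32.2, 23.4 and 23.3 CPM at 6 °C, 82.8 and 69.3 CPM at 22 °C and 292, 87.2 and 184 CPM at 29 °C (log2 change 2.77, SE 0.38, adjusted p = 0.0198). In all 3 genes library 11 was the lowest at 29 °C, and for Gadd45b and Jun it lay close to library 5. Slc17a8, a vesicular glutamate transporter, read 1.14, 2.66 and 1.36 CPM at 6 °C, 3.37 and 3.53 CPM at 22 °C and 23.0, 16.5 and 9.14 CPM at 29 °C (log2 change 3.12, SE 0.52, adjusted p = 0.0288), and its 22 °C level was off the line by -1.26 (SE 0.39, adjusted p = 0.0484). Dusp1, a phosphatase that switches off MAP kinases and is induced by stress and glucocorticoids, read 157, 107 and 99.3 CPM at 6 °C, 189.9 and 162 CPM at 22 °C and 337, 332 and 323 CPM at 29 °C (log2 change 1.37, SE 0.22, adjusted p = 0.0271). Calls were lost without library 4 (0.0622), 10 (0.0679) or 12 (0.0593) for Rgs16, 4 (0.0635) for Gadd45b, 4 (0.0740) or 12 (0.0593) for Jun, 2 (0.0812), 4 (0.110), 10 (0.0827), 11 (0.0869) or 12 (0.0593) for Slc17a8 and 3 (0.0672), 4 (0.107), 10 (0.0907), 11 (0.0869) or 12 (0.0724) for Dusp1, each with the adjusted p of that edgeR fit in brackets. Rgs16 also lost its call without a filter on low counts, and Dusp1 in all 12 libraries without a term for H2-Ea-ps.

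A further 7 called rises are named here after their values were seen. Ppp1r15a, which returns translation to normal after stress, rose by 1.28 on the log2 scale (adjusted p = 0.0271), from 10.7 ± 1.23 CPM at 6 °C over 17.6 ± 0.639 to 26.8 ± 6.34 CPM at 29 °C (SD, n = 3, 2 and 3). On the same scale Pprc1, a coactivator of the PGC1 family, rose by 1.35, the nucleolar gene Gnl3 by 1.06 and the phosphate transporter Slc20a1 by 1.40. Pltp, a phospholipid transfer protein of plasma, rose by 1.49, with means of 48.3 ± 18.8, 103 ± 0.306 and 134 ± 16.1 CPM at 6, 22 and 29 °C (SD). The membrane ligand Efna1 and its receptor family member Epha2 rose by 1.35 and 1.23. All 7 genes were in strict order, and each lost its call in 4 to 6 of the 8 fits with a library left out, at adjusted p of up to 0.134. In all 12 libraries with a term for H2-Ea-ps the call of Slc20a1 was lost (adjusted p = 0.0547), and its log2 change in the 4 libraries with H2-Ea-ps was -0.14 against 1.39, unadjusted p of the difference = 0.00388, adjusted p = 0.954. Slc20a1, Ppp1r15a, Pltp and Efna1 lost their calls in all 12 libraries without that term.

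After A1bg, the largest falls by the naming rule were Gsta2, Sult5a1, Upp2, Dio1 and Acmsd. Upp2, a liver uridine phosphorylase, read 204, 349 and 479 CPM at 6 °C, 102 and 166 CPM at 22 °C and 20.5, 39.6 and 46.8 CPM at 29 °C (log2 change -3.04, SE 0.49, adjusted p = 0.0315). Dio1, the deiodinase that activates thyroxine and is itself a target of thyroid hormone, read 113, 120.0 and 59.0 CPM at 6 °C, 32.8 and 51.7 CPM at 22 °C and 7.57, 15.2 and 8.29 CPM at 29 °C (log2 change -2.94, SE 0.50, adjusted p = 0.0350). For both, every library at 29 °C was below every library at 22 °C, and library 4 was the lowest at 6 °C for Dio1 and the highest for Upp2. Gsta2, a glutathione transferase, read 4.20, 6.83 and 17.6 CPM at 6 °C, 2.04 and 2.16 CPM at 22 °C and 0.653, 0.483 and 1.76 CPM at 29 °C (log2 change -3.30, SE 0.54, adjusted p = 0.0275), and reads of this gene may be shared with its close paralog Gsta1. Sult5a1, a sulfotransferase, read 11.8, 7.36 and 25.1 CPM at 6 °C, 3.64 and 6.17 CPM at 22 °C and 1.09, 1.01 and 1.89 CPM at 29 °C (log2 change -3.23, SE 0.51, adjusted p = 0.0266). Acmsd, which diverts tryptophan breakdown away from NAD synthesis, read 49.5, 42.9 and 146 CPM at 6 °C, 29.9 and 36.4 CPM at 22 °C and 11.3, 8.88 and 16.5 CPM at 29 °C (log2 change -2.56, SE 0.48, adjusted p = 0.0479). Library 4 was the highest of all 8 for Gsta2, Sult5a1, Acmsd, A1bg and Upp2. Without library 4 the trends were smaller for Acmsd (-1.78) and Gsta2 (-2.48) and both lost their calls. Calls were lost without library 3 (0.0532), 4 (0.121), 5 (0.0559), 10 (0.0679), 11 (0.0811) or 12 (0.0865) for Upp2, 2 (0.0836), 3 (0.0744), 4 (0.0546), 5 (0.0572), 10 (0.108), 11 (0.0833) or 12 (0.0865) for Dio1, 4 (0.110), 10 (0.104), 11 (0.0869) or 12 (0.0504) for Gsta2, 4 (0.107), 10 (0.0907), 11 (0.0811) or 12 (0.0712) for Sult5a1 and 2 (0.0627), 4 (0.139), 5 (0.0696), 6 (0.0503), 10 (0.174), 11 (0.0971) or 12 (0.106) for Acmsd (adjusted p from edgeR in brackets). Without a filter on low counts the calls of Upp2 (0.0853), Dio1 (0.0970) and Acmsd (0.129) were lost too, and that of Acmsd also with the Gm26917 covariate (0.0649), as a linear contrast of group means (0.0513), in the 6 and 29 °C libraries alone (0.0726) and in all 12 libraries without a term for H2-Ea-ps (0.0725).

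Amino acid breakdown held the most falling genes of the 25 pathway lists. Of its 47 genes tested, 5 fell, 0 rose and 42 were not called, with 45 negative trends and a median of -0.65, beside 0.02 over all genes and 0.409% of genes called lower. The 5 were Prodh, Ahcy, Gls2, Ass1 and Cth. At an unadjusted p under 0.05 stood 35 of the 47, against 17.2% of all genes, and DESeq2 called 20 and limma-voom 18. Ahcy, which hydrolyses S-adenosylhomocysteine in the methionine cycle, read 174, 181 and 208 CPM at 6 °C, 135 and 129.9 CPM at 22 °C and 92.1, 99.9 and 115 CPM at 29 °C (log2 change -0.86, SE 0.15, adjusted p = 0.0309). Ass1, the urea cycle enzyme that joins citrulline and aspartate, read 1121, 986 and 1864 CPM at 6 °C, 701 and 773 CPM at 22 °C and 536, 494 and 692 CPM at 29 °C (log2 change -1.21, SE 0.24, adjusted p = 0.0425). Both fell in strict order, although Ass1 was much higher in library 4 than in the other 6 °C libraries. Gls2, the liver glutaminase, and Cth, which makes cysteine from cystathionine, fell by 1.57 and 1.59 on the log2 scale and were highest in library 4 too, at 996 and 1001 CPM. Car5a, the mitochondrial carbonic anhydrase that supplies bicarbonate to the urea cycle, was not on the list and fell by 1.31 on the log2 scale (adjusted p = 0.0365). Its call was lost without library 2, 3, 4, 10, 11 or 12 (adjusted p of up to 0.137, edgeR). The first enzymes of tyrosine and of tryptophan breakdown, Tat and Tdo2, had trends of -1.48 and -1.14 that were not called (adjusted p = 0.0851 and 0.0581). The count of 5 was 1 without library 2, 4, 10 or 11, 2 without library 12, 3 without library 3 or 5 and 8 without library 6. With the Gm26917 covariate it was 27, without Cth (adjusted p = 0.0517).

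**Figure D2:**
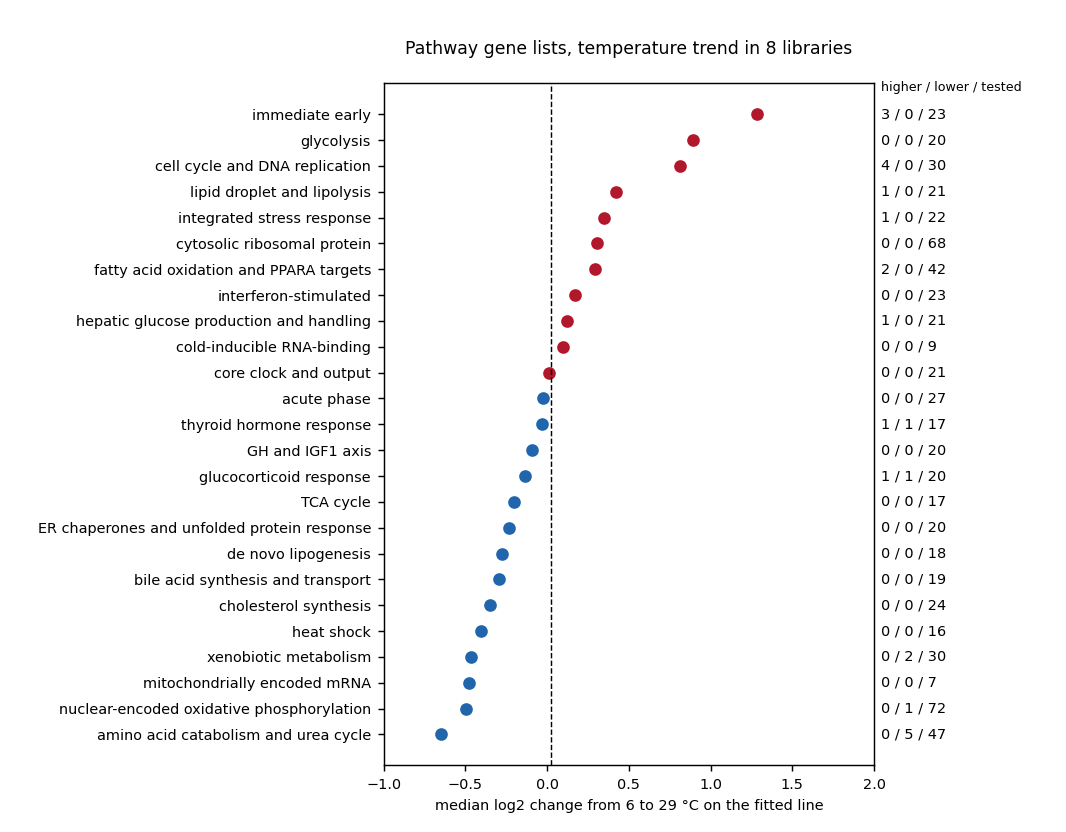
Median log2 change from 6 to 29 °C on the fitted line for each of 25 pathway gene lists, with the numbers of genes called higher, called lower and tested at the right and the median of all tested genes as a dashed line. Immediate early genes lie highest at 1.28 with 3 of 23 called higher, and amino acid catabolism lies lowest at -0.65 with 5 of 47 called lower.

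Other metabolic lists had negative medians, with call counts that differed between tools. In nuclear-encoded oxidative phosphorylation 71 of 72 trends were negative (median -0.49), and 1 gene, the complex IV subunit Cox8a, fell (log2 change -0.75, SE 0.14, adjusted p = 0.0386). Over all genes 0.409% were called lower in edgeR. At an unadjusted p under 0.05 stood 36 of the 72 (17.2% of all genes did), and DESeq2 called 13 and limma-voom 12. Cox8a was in the same range at 22 and 29 °C, and its 3 libraries at 6 °C, 88.9, 104 and 98.4 CPM, stood above all others. Of 30 xenobiotic enzymes 2 fell, 0 rose and 28 were not called (median -0.47), with 10 at an unadjusted p under 0.05 and 6 called by DESeq2 and 5 by limma-voom. They were Ugt2b1 and Ugt2b5, glucuronosyltransferases of one gene cluster whose reads may be shared. Ugt2b1 read 89.6, 104 and 122 CPM at 6 °C, 77.1 and 83.5 CPM at 22 °C and 42.8, 49.7 and 40.1 CPM at 29 °C (log2 change -1.15, SE 0.21, adjusted p = 0.0365), and Ugt2b5 read 210.3, 222 and 250.1 CPM at 6 °C, 149.9 and 157 CPM at 22 °C and 114, 148 and 127 CPM at 29 °C (log2 change -0.81, SE 0.15, adjusted p = 0.0350). Both were in strict order, with the 22 °C level of Ugt2b1 above the line by 0.48 (SE 0.14, adjusted p = 0.0370). In cholesterol synthesis 23 of 24 trends were negative (median -0.35) and 0 were called in edgeR, with 5 at an unadjusted p under 0.05 and 1 called by each of DESeq2 and limma-voom. The count of xenobiotic genes called was 0 without library 2, 3, 4, 10, 11 or 12 and 5 without library 6. Ugt2b1, Ugt2b5 and Cox8a each lost the call without library 2, 3, 4, 10, 11 or 12, at adjusted p of up to 0.142, 0.139 and 0.139.

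Few genes of fat use were called to rise along the line. Of 42 tested genes of fatty acid oxidation and PPARA targets 2 rose, 0 fell and 40 were not called (median 0.29), beside 0.362% of all genes called higher. At an unadjusted p under 0.05 stood 12, and DESeq2 called 5 and limma-voom 3. Of the 42, 35 had positive trends, and 11 were called below the line at 22 °C, beside 8.21% of all genes. From 22 to 29 °C 15 were called higher and 0 lower, beside 9.35% and 7.74% of all genes. From 6 to 22 °C 0 were called higher and 4 lower, beside 2.21% and 4.48%. Pdk4, the kinase that shuts pyruvate out of oxidation, read 10.4, 7.66 and 9.10 CPM at 6 °C, 15.9 and 18.5 CPM at 22 °C and 60.4, 23.1 and 49.1 CPM at 29 °C (log2 change 2.21, SE 0.35, adjusted p = 0.0271). Pex11a, a peroxisome division factor, read 17.9, 22.7 and 20.0 CPM at 6 °C, 33.6 and 22.6 CPM at 22 °C and 47.0, 40.6 and 48.4 CPM at 29 °C (log2 change 1.11, SE 0.20, adjusted p = 0.0350). Pdk4 was in strict order with library 11 just above library 6, and one 22 °C library of Pex11a lay within the 6 °C range. Plin4, a lipid droplet coat protein and the 1 gene of 21 that rose in the lipid droplet list (median 0.42), read 4.71, 4.17 and 3.03 CPM at 6 °C, 6.66 and 3.53 CPM at 22 °C and 20.4, 18.3 and 22.4 CPM at 29 °C (log2 change 2.25, SE 0.43, adjusted p = 0.0394). Its 6 and 22 °C libraries overlapped, all 29 °C libraries lay far above them, and the 22 °C level was off the line by -1.27 (SE 0.27, adjusted p = 0.00936). In glucose handling 1 of 21 genes rose, Ppp1r3c, which targets a phosphatase to glycogen. Ppp1r3c read 48.2, 42.3 and 36.6 CPM at 6 °C, 151 and 115 CPM at 22 °C and 138, 92.9 and 149.5 CPM at 29 °C, so that the 22 and 29 °C libraries overlapped and all lay above 6 °C (log2 change 1.70, SE 0.28, adjusted p = 0.0271). Of 20 glycolytic genes 17 had positive trends (median 0.89) and 0 were called in edgeR, with 11 at an unadjusted p under 0.05 and 5 called by DESeq2 and 4 by limma-voom. At 22 °C 8 of the 20 were called below the line. Without library 2, 3, 4, 10 or 12 the calls of Pdk4, Plin4, Pex11a and Ppp1r3c were all lost, at adjusted p of up to 0.145.

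The hormone-response lists moved in no common direction. In thyroid hormone response 1 of 17 genes rose (Fgf21), 1 fell (Dio1) and 15 were not called (median -0.03). Over all genes 0.362% were called higher and 0.409% lower. At an unadjusted p under 0.05 stood 6 of the 17 (17.2% of all genes did), and DESeq2 called 4 and limma-voom 5. In glucocorticoid response 1 of 20 rose (Dusp1), 1 fell (Upp2) and 18 were not called (median -0.14). Of these 20, 8 had an unadjusted p under 0.05, and DESeq2 and limma-voom called 5 each. Klf15, a glucocorticoid-induced regulator of amino acid breakdown that was not on the list, fell (log2 change -1.06, SE 0.21, adjusted p = 0.0425) with all 6 °C libraries above all others. It lost its call with the reduced library sizes and without library 2, 3, 4, 10, 11 or 12 (adjusted p of up to 0.168, edgeR). In the integrated stress response Fgf21 alone of the 22 genes tested on the list rose (median 0.35). Ppp1r15a, a called rise described above, was not on this list. Of these 22, 5 had an unadjusted p under 0.05, and DESeq2 called 3 and limma-voom 1. Gdf15, a stress hormone often raised in cachexia, read 34.1, 8.50 and 11.2 CPM at 6 °C, 23.9 and 17.1 CPM at 22 °C and 205, 73.9 and 101 CPM at 29 °C and was not called (log2 change 2.67, adjusted p = 0.143). The lists of TCA cycle, lipogenesis, bile acids, unfolded protein response, heat shock, cold-inducible RNA-binding proteins, clock, growth hormone axis, acute phase, interferon response, ribosomal proteins and mitochondrially encoded mRNA held 0 calls in edgeR. Together with cholesterol synthesis and glycolysis these 14 lists hold 309 genes, of which 58 had an unadjusted p under 0.05 (17.2% of all genes did), and DESeq2 called 18 and limma-voom 16. The lists differed: at an unadjusted p under 0.05 stood 11 of 20 genes of glycolysis, 7 of 19 of bile acids and 6 of 16 of heat shock, but 3 of 68 of ribosomal proteins and 0 of 9 of cold-inducible RNA-binding proteins. Cirbp, a cold-inducible RNA-binding protein, read 8.78, 7.74 and 7.50 CPM at 6 °C, 4.44 and 4.41 CPM at 22 °C and 10.2, 5.55 and 11.6 CPM at 29 °C. Rbm3, another, read 11.2, 9.56 and 7.18 CPM at 6 °C, 7.99 and 9.61 CPM at 22 °C and 10.3, 8.15 and 18.2 CPM at 29 °C. Library 12 was the highest of all 8 for both. Their trends, 0.06 (adjusted p = 0.956) and 0.34 (adjusted p = 0.622), were not called and changed sign between alternative fits. In edgeR's fit with 3 group means Cirbp was off the line at 22 °C by -0.98 (SE 0.29, adjusted p = 0.0399). Its difference of 29 °C over 22 °C, 1.04 (adjusted p = 0.0377), was called too, and Rbm3 had no call there.

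A few immediate early and cell cycle genes rose with temperature, and the summed level of granulocyte precursor markers was in the same order. Of 23 immediate early genes 3 rose (Gadd45b, Jun and Dusp1), 0 fell and 20 were not called, with 22 positive trends and a median of 1.28, beside 0.362% of all genes called higher. At an unadjusted p under 0.05 stood 17 of them (17.2% of all genes did), and DESeq2 called 10 and limma-voom 8. Of 30 cell cycle genes 4 rose (Top2a, Mki67, Cdc6 and Kif11), 0 fell and 26 were not called, with a median of 0.82. At an unadjusted p under 0.05 stood 15, and DESeq2 called 12 and limma-voom 11. Top2a, the topoisomerase of dividing cells, read 9.41, 8.80 and 9.74 CPM at 6 °C, 17.8 and 13.8 CPM at 22 °C and 30.7, 35.2 and 17.4 CPM at 29 °C (log2 change 1.53, SE 0.26, adjusted p = 0.0312). Mki67, a marker of cycling cells, read 26.2, 30.8 and 21.3 CPM at 6 °C, 46.7 and 46.5 CPM at 22 °C and 64.4, 61.1 and 40.9 CPM at 29 °C (log2 change 1.10, SE 0.20, adjusted p = 0.0350). For both, library 12 at 29 °C fell among or next to the 22 °C libraries, and all 6 °C libraries were the lowest. The summed level of 12 granulocyte precursor markers was 15.6 to 222 CPM at 6 °C, 246 to 341 CPM at 22 °C and 543 to 808 CPM at 29 °C, with all 12 trends positive and a median of 2.27. Taken singly, 6 of the 12 were in strict order on this list. Camp, an antimicrobial peptide gene of these cells, was its 1 called member (log2 change 2.60, SE 0.48, adjusted p = 0.0365) and read 4.33, 4.63 and 0.798 CPM at 6 °C, 9.05 and 7.65 CPM at 22 °C and 22.1, 23.8 and 14.4 CPM at 29 °C. Library 4 was the lowest for this list at 15.6 CPM, as it was for mature neutrophils at 329 CPM against 549.9 to 1998 CPM in the others, and 12 of 12 neutrophil and 14 of 14 Kupffer cell markers had positive trends with 0 calls in edgeR. Of these, 3 and 11 had an unadjusted p under 0.05, and DESeq2 called 0 and 5 and limma-voom 0 and 4. The part of these cells in the rise of cell cycle genes was not tested. Calls were lost without library 2, 3, 4, 10 or 11 for Top2a and Mki67 and without library 2, 4, 10, 11 or 12 for Camp, at adjusted p of up to 0.111, 0.139 and 0.132 in edgeR. The cell cycle count was 0 without library 3, 4, 10 or 11, 1 without library 2, 2 without library 12 and 7 without library 6, and the immediate early count was 0 without library 4 and 1 without library 12.

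Marker lists of other tissues differed in level. The 7 skeletal muscle markers summed to 0.399 to 2.67 CPM, and the adipocyte list to 18.5 to 32.6 CPM with Ucp1 at 0 counts. The intestinal list reached 1038 CPM in library 11 and 227.9 to 711 CPM elsewhere, with Defa24 at 0. Apoa4, which hepatocytes also express, made up 208.8 to 688 CPM of it, while Akp3 and Krt20 (49.4 CPM) were found in library 11 alone. Its 1 called member of 6 tested was Lgals4, a galectin, which read 3.69, 5.39 and 4.23 CPM at 6 °C, 7.90 and 5.78 CPM at 22 °C and 14.8, 38.4 and 21.0 CPM at 29 °C (log2 change 2.36, SE 0.45, adjusted p = 0.0408), highest in library 11. The pancreatic acinar list summed to 54.4 CPM in library 3 and to 2.29 to 16.4 CPM in the others. The call of Lgals4 was lost without library 2, 3, 4, 10, 11 or 12 (adjusted p up to 0.143, and 0.0909 without library 11, edgeR), and the part of these tissues in other results was not tested.

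Of the 117 genes, 112 had the same sign in both steps. In a fit with 3 group means, 40 were called between 22 and 6 °C, 42 between 29 and 22 °C, 6 in both steps and 41 in neither. Over all genes 1015 (6.69%) were called for 22 over 6 °C, 336 higher (2.21%) and 679 lower (4.48%), and 2594 (17.1%) for 29 over 22 °C, 1419 higher (9.35%) and 1175 lower (7.74%). With the Gm26917 covariate these numbers over all genes were 12 and 7. Both steps share the 22 °C libraries. Without library 2, 3, 4, 5, 6 or 10 the lower step had 323, 2101, 492, 4, 2 and 616 calls, and without library 5, 6, 10 or 12 the upper step had 610, 255, 1190 and 1626. Crat, the carnitine acetyltransferase, changed in the upper step with 38.0, 36.7 and 30.8 CPM at 6 °C, 47.9 and 40.5 CPM at 22 °C and 92.3, 85.2 and 92.9 CPM at 29 °C. Its log2 steps were 0.33 (adjusted p = 0.183) and 1.03 (adjusted p = 0.00152). Mmd2, a membrane protein, was at like levels at 22 and 29 °C with 41.3, 21.8 and 88.4 CPM at 6 °C, 5.77 and 5.49 CPM at 22 °C and 4.57, 4.34 and 7.44 CPM at 29 °C, and its steps were -3.16 (adjusted p = 0.0519) and -0.06 (adjusted p = 0.968). Tert, the telomerase reverse transcriptase, fell in strict order with 15.8, 17.1 and 13.4 CPM at 6 °C, 7.90 and 10.2 CPM at 22 °C and 4.14, 4.97 and 3.66 CPM at 29 °C (log2 change -1.73, SE 0.26, adjusted p = 0.0239). So did Gas1, a membrane co-receptor of Hedgehog signalling, with 19.7, 13.5 and 24.3 CPM at 6 °C, 8.96 and 12.6 CPM at 22 °C and 4.52, 6.03 and 5.16 CPM at 29 °C (log2 change -1.76, SE 0.28, adjusted p = 0.0271). Only the upper step was called for both. The log2 steps were -0.77 (adjusted p = 0.0689) and -1.08 (adjusted p = 0.00952) for Tert and -0.83 (adjusted p = 0.0800) and -1.04 (adjusted p = 0.0193) for Gas1. The groups of Tert and Gas1 did not overlap, while for Mmd2 those at 22 and 29 °C did. All 4 were picked with their values known, and Crat, Tert and Gas1 lost the trend call in at least 5 of the 8 reduced fits, Mmd2 without library 10 or 11.

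More genes were called off the line at 22 °C than in the trend, but these counts come from unlike fits. The 117 trend calls are from the straight-line fit, whose error term takes in departures at 22 °C. Departures were tested in the fit with 3 group means, where a linear contrast called 1113 genes. With the Gm26917 covariate, and in all 12 libraries with a term for H2-Ea-ps, more genes were called in the trend than off the line. The 22 °C level differed from the straight line between 6 and 29 °C in 2277 genes (15%), with 1032 above (6.8%) and 1245 below (8.21%). In 986 of them the 22 °C mean was higher than both other means and in 1226 lower than both, with 65 between. Rps26, a ribosomal protein, read 43.6, 92.6 and 32.0 CPM at 6 °C, 166 and 166 CPM at 22 °C and 37.1, 31.4 and 35.0 CPM at 29 °C, above the line by 2.05 (SE 0.35, adjusted p = 0.0138). Rps14, another ribosomal protein, read 44.8, 23.3 and 57.9 CPM at 6 °C, 8.17 and 6.37 CPM at 22 °C and 57.3, 55.2 and 68.4 CPM at 29 °C, off the line by -2.89 (SE 0.37, adjusted p = 0.00356). Ribosomal protein genes have near-identical pseudogenes with which reads may be shared. The 22 °C libraries stood apart in opposite directions in these genes, and library 3 was the 6 °C library nearest to them in both. Cox20, an assembly factor of complex IV, was above by 1.77 (SE 0.24, adjusted p = 0.00169) and Ptgds, a prostaglandin D synthase, by 1.86 (SE 0.50, adjusted p = 0.0273). Ltb4r1, a leukotriene B4 receptor, and Tnfrsf12a, the receptor of TWEAK, were off by -3.74 (SE 0.62, adjusted p = 0.00356) and -3.18 (SE 0.45, adjusted p = 0.00236). Tnfrsf12a read 4.58, 1.59 and 3.75 CPM at 6 °C, 1.42 and 0.980 CPM at 22 °C and 23.5, 12.8 and 20.2 CPM at 29 °C, and Ltb4r1 was at or under 0.490 CPM at 22 °C, a few counts. Ptgds had means of 3.31, 4.76 and 0.893 CPM at 6, 22 and 29 °C. For Ptgds, Tnfrsf12a and Rps26 only the step from 22 to 29 °C was called. Their log2 steps from 6 to 22 °C were 0.53, -1.41 and 1.56 (adjusted p = 0.599, 0.104 and 0.0714, edgeR), and those from 22 to 29 °C were -2.44, 3.95 and -2.27. Of 7 mitochondrially encoded mRNAs tested, 5 were above the line (median departure 1.70 on the log2 scale).

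**Figure D3:**
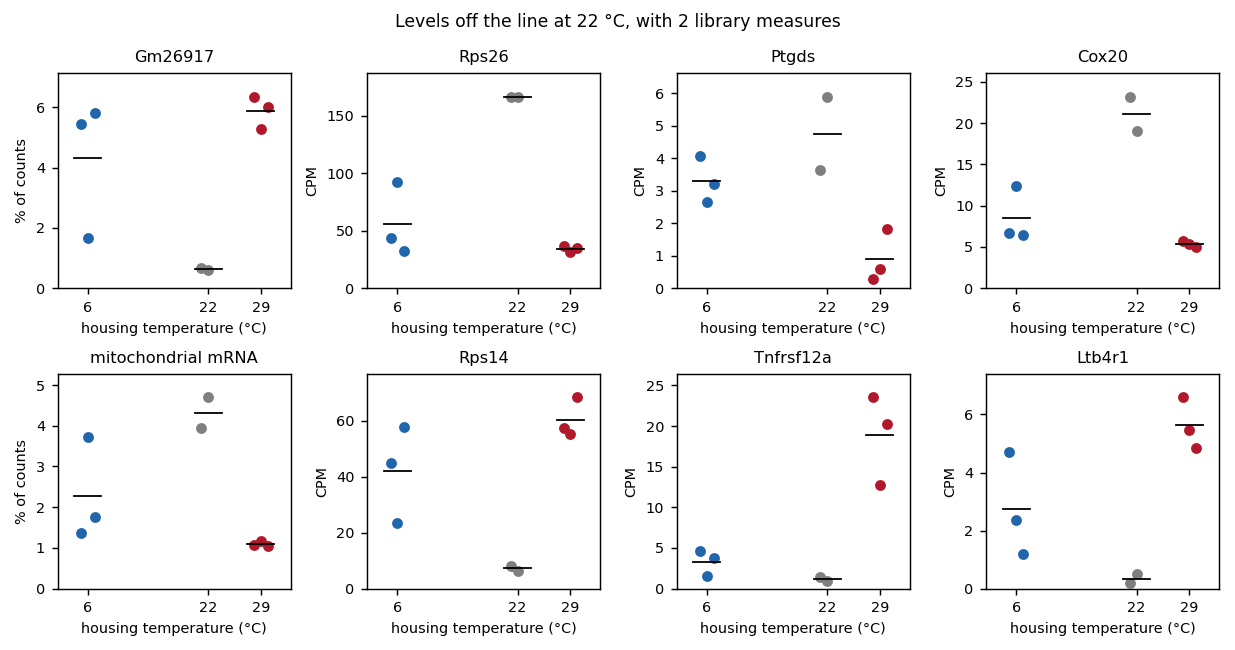
Gm26917 and mitochondrial mRNA as % of counts and CPM of the 3 highest and 3 lowest called departures, against housing temperature in °C, with 1 point per library and a line at each group's mean. Gm26917 is at 0.667% and 0.606% in the 22 °C libraries and at 1.66% in library 3, and Rps26 is highest and Rps14 lowest in the same libraries.

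The departures moved with the library measures given above. With the log2 share of Gm26917 as a covariate, 8 genes were off the line in place of 2277, and Rps26 had a departure of -0.05. None of the 6 named genes was called in that fit or in all 12 libraries with a term for H2-Ea-ps, and all but Cox20 lost the call without library 6. In the 12 libraries 22 genes were off the line. Without library 6 the number was 14, without library 5 it was 317, it was 1191 without library 10 and 1471 without library 12. Genes above the line had longer transcripts of lower GC content (median 3874 bases and 44.3%) than all tested genes (3181 bases and 49.0%), and genes below the line shorter ones of higher GC content (2830 bases and 56.3%). The genes called in the trend were closer to all genes in GC content, at 49.6% for those that rose (3316 bases) and 51.7% for those that fell (2573 bases). The part of Gm26917 and of transcript features in the 22 °C values was not tested further. Temperature and the low Gm26917 share cannot be told apart at 22 °C, where both libraries had it.

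Several other fits of the slope called more genes. The covariate gave 1375 trend calls, of which 115 were among the 117. A linear contrast of the 3 group means gave 1113 (7.34%), 485 higher (3.20%) and 628 lower (4.14%), among them 116 of the 117. Of the 1113, 283 were in strict order and 263 were off the line. The libraries at 6 and 29 °C alone gave 1206. All 12 libraries with a term for H2-Ea-ps gave 1122, with 110 of the 117. Prodh, Txnip, Inhba, Gask1a and Tlcd2 were called in each of these fits, as was Fgf21.

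**Figure D4:**
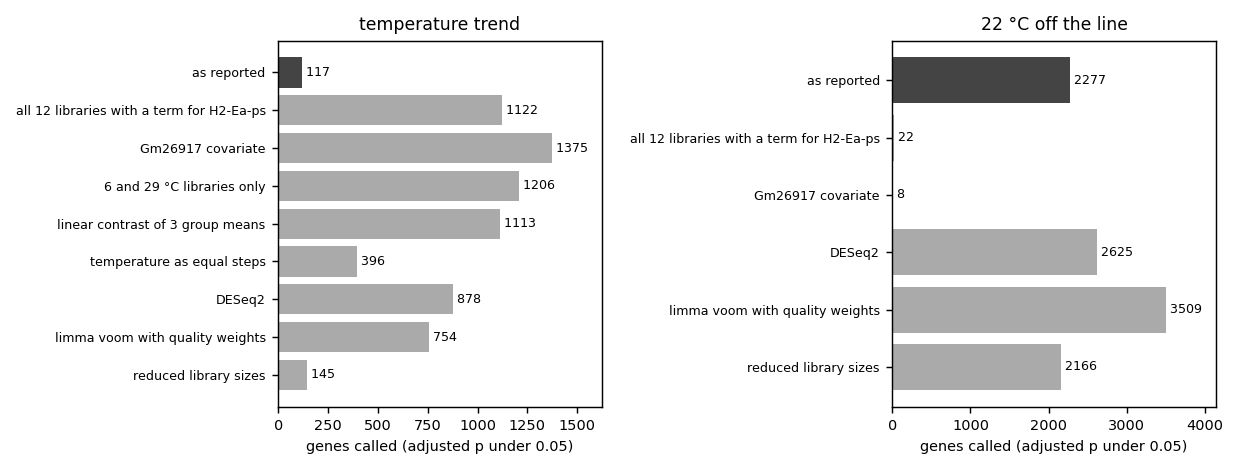
Number of genes called (adjusted p under 0.05) for the temperature trend and for the 22 °C departure from the line, as reported and under alternative fits. The trend count rises from 117 to 1375 and the departure count drops from 2277 to 8 with the Gm26917 covariate.

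The slopes were set beside those of the 4 libraries with H2-Ea-ps counts, 1 at 6 °C, 2 at 22 °C and 1 at 29 °C. No gene of 15006 (0%) had a slope that differed between both sets by edgeR's interaction test at an adjusted p under 0.05, and 697 (4.64%) did at an unadjusted p under 0.05. Without library 3 the difference was called for 1 gene, Fgf21 (adjusted p = 0.0441), where the remaining 6 °C libraries of the 8 have 0 counts. Of 113 trend genes measured in both sets, 107 (94.7%) had the same sign in the other 4 libraries, against 9434 of 14750 (64.0%) of all genes. A test that found no difference does not show that the slopes are alike.

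Of the 117 genes, 21 had an unadjusted p under 0.05 for a difference in slope, among them Dusp1, Upp2, A1bg, Fgf21 and Txnip. For Dusp1 the log2 change over the range was 3.88 against 1.36, unadjusted p of the difference = 0.00198, adjusted p = 0.769, and its 6 °C library in that set read 16.9 CPM against 103 to 162 CPM in the 8 (scaled over all 12). For Upp2 it was -5.76 against -3.05, unadjusted p of the difference = 0.00933, adjusted p = 0.964, with 637 CPM at 6 °C, 37.8 and 53.7 CPM at 22 °C and 10.7 CPM at 29 °C. For A1bg it was 0.42 against -3.97, unadjusted p of the difference = 0.0222, adjusted p = 0.979. All 4 libraries with H2-Ea-ps were low for A1bg, at 3.03, 0.963, 10.8 and 3.02 CPM, in no order of temperature, while the 8 ranged from 22.0 to 897 CPM. For Fgf21 it was 3.30 against 7.58, unadjusted p of the difference = 0.0432, adjusted p = 1.00. Its levels in that set were 1.44 CPM at 6 °C, 11.2 and 8.96 CPM at 22 °C and 13.2 CPM at 29 °C. The 22 °C values lay above both 22 °C values of the 8, and the 29 °C value below all 3 of theirs. Prodh read 237.9 CPM at 6 °C, 106 and 111 CPM at 22 °C and 60.2 CPM at 29 °C there, close to its levels in the 8. For Txnip the log2 change was 0.93 against 2.58, unadjusted p of the difference = 0.00131, adjusted p = 0.678.

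**Figure D5:**
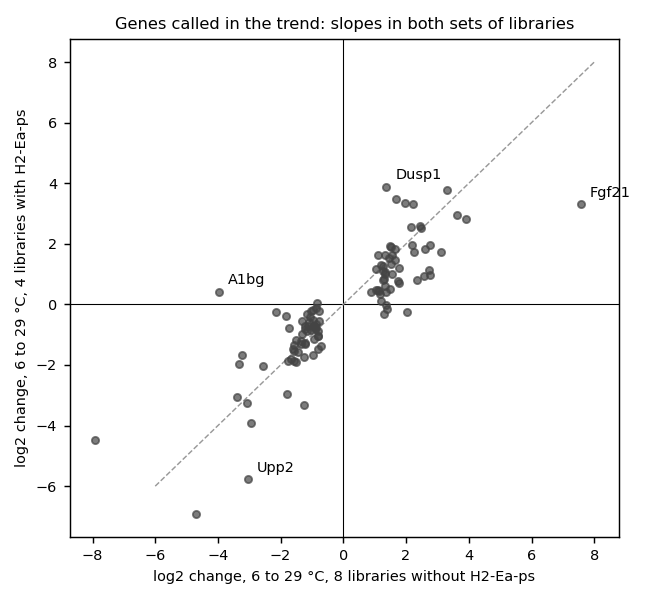
Log2 change from 6 to 29 °C for genes called in the trend, in the 8 libraries without H2-Ea-ps counts (x) and in the 4 with them (y), 1 point per gene, with a dashed line at equal values. Of 113 genes, 107 lie in the lower left or upper right quadrant, and A1bg has opposite signs in the sets.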

How the data were processed

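The 12 liver libraries, 4 at each of 6, 22 and 29 °C, were made from total RNA depleted of ribosomal RNA, per the labels' protocols. For 55421 genes the authors deposited unnormalized read counts (whole numbers). GRCm38, STAR 2.6.1a, bcl2fastq and DESeq2 1.44.0 are named, without roles, in the submitters' processing notes. Which program counted the reads, and whether by strand, is not given in the sources used here. The 8 libraries with 0 counts of H2-Ea-ps were fitted with edgeR 4.0.16 in R 4.3.3 (TMM, filterByExpr with a minimum count of 10, robust quasi-likelihood, two-sided, Benjamini-Hochberg adjusted p under 0.05, 6 residual degrees of freedom for the slope and 5 for 3 group means). CPM values are per library on the same scaling. Symbols that occur more than once (113) were read from the copy with the most counts.

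The 8 libraries, the genes and the lists (25 pathways, 15 marker sets) were chosen with earlier results of these data known, so counts over them are descriptions. Genes were named by a rule: Fgf21, Cirbp and Rbm3 always, the 6 largest rises and 6 largest falls among called genes in strict order whose log2 CPM averaged 1 or more, 2 called members in each of the 8 lists with the highest share called, and the 3 highest and 3 lowest departures. Further genes were named after their values were seen, and the text says so or gives them as counterparts of named genes. Replicate pairs within a group differed by more than counting error, with a chi-square of 12.7 to 68.3 for each degree of freedom, and no library was counted as a copy of another. Alternatives used DESeq2 1.42.0, limma-voom with quality weights (limma 3.58.1), other scalings and filters, a Gm26917 covariate, other codings of temperature, all 12 libraries and each library left out. The fitting scripts were tested on simulated data. Promoters are from RefSeq (GRCm38.p6), and transcript length and GC content from GENCODE vM21.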

Additional observations from a re-analysis of the deposited data

How the results depend on the processing

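The number of genes called in the trend (117) was 294 without a filter on low counts, 878 with DESeq2, 754 with limma-voom, 1375 with the Gm26917 covariate, 1122 and 207 in all 12 libraries with and without a term for H2-Ea-ps, 396 with temperature in equal steps, 1113 as a linear contrast of 3 means, 1206 in the 6 and 29 °C libraries alone and 1 against a minimum absolute log2 change of 1. Leaving out single libraries gave 11 to 247. The same genes were then tested with 1 library fewer. Departures at 22 °C (2277) numbered 3509 with limma-voom, 8 with the covariate and 22 in all 12 libraries with the term, and 14 to 3040 with a library left out. For 22 over 6 °C (1015) the numbers were 1806 without a filter, 1523 with limma-voom, 12 with the covariate, 58 in all 12 libraries and 2 to 2101 with a library left out. For 29 over 22 °C (2594) they were 7, 540 and 255 to 3113 for the covariate, all 12 libraries and a library left out. The slope difference between both sets was called for 0 to 1 genes. Without library 5 or 6 a single 22 °C library is assumed to vary like the other groups. The Fgf21 slope on log2(CPM + 1) lay between 3.80 and 4.72 with a library left out and was 6.81 with a pseudocount of 0.1. The trend of Cirbp was -0.038 with the covariate, -0.057 as a linear contrast and -0.22 to 0.19 with a library left out, that of Rbm3 was -0.030 to 0.51 with a library left out, and the departure of Rps26 was -0.052 with the covariate. The cause of these shifts was not tested. Of the other values (single genes and list counts), 480 kept their direction and call, 156 lost the call, 105 list counts or values moved and 6 changed sign. No paired analysis was possible because the library numbers run from 1 to 12 and no number is shared between groups. Depth limits genes near 3 counts, such as Fgf21 at 6 °C and Ltb4r1 at 22 °C.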

Other observations

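Some called genes belong to groups not described above and were chosen after their values were seen. Hectd2os, a long noncoding RNA, read 7.25, 5.61 and 4.07 CPM at 6 °C, 29.8 and 18.3 CPM at 22 °C and 35.3, 21.7 and 33.6 CPM at 29 °C (log2 change 2.50, SE 0.32, adjusted p = 0.0135, edgeR's quasi-likelihood test), higher in both warmer groups than in every 6 °C library. Its symbol marks a transcript opposite to Hectd2, and without a stated use of strand reads of the pair cannot be told apart. The call was lost without library 4 (0.0509). Of the major urinary proteins, a liver-secreted pheromone carrier family with near-identical copies whose reads can be split between genes, Mup6 read 3.94, 2.73 and 1.52 CPM at 6 °C, 0.710 and 0.490 CPM at 22 °C and 0, 0 and 0 CPM at 29 °C. Mup11 and Mup18 had 0 counts in all 22 and 29 °C libraries and 1.04 to 2.67 CPM and 0.798 to 1.37 CPM at 6 °C. They passed the filter on low counts through the 6 °C libraries, so no fold or call is given for them. Mup6, Mup11, Mup18 and the pseudogene Mup-ps13 are still counted among the 117 trend genes. Mup6 and Mup-ps13 are also counted among the 82 in strict order.

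A pair of steroid enzymes was also among the called genes. Cyp17a1, which makes androgen precursors, read 234, 250.1 and 343 CPM at 6 °C, 97.9 and 164 CPM at 22 °C and 77.4, 53.6 and 102 CPM at 29 °C (log2 change -1.79, SE 0.26, adjusted p = 0.0198). Srd5a1, a steroid reductase, read 38.4, 20.9 and 53.7 CPM at 6 °C, 15.2 and 13.6 CPM at 22 °C and 8.55, 9.41 and 14.7 CPM at 29 °C (log2 change -1.82, SE 0.30, adjusted p = 0.0275). In both, all 6 °C libraries lay above all others and the 22 and 29 °C libraries overlapped. Without library 4 the calls of Cyp17a1 (adjusted p = 0.0740) and Srd5a1 (adjusted p = 0.107) were lost in the same edgeR test, as they were without library 10 or 11. Srd5a1 also lost its call without library 2 (adjusted p = 0.073), and Cyp17a1 in all 12 libraries without a term for H2-Ea-ps. Glutathione transferases Gstk1 and Gstt3 fell in strict order, with Gstk1 at 76.6, 78.9 and 108 CPM at 6 °C, 52.3 and 51.3 CPM at 22 °C and 40.8, 37.7 and 44.3 CPM at 29 °C (log2 change -1.10, SE 0.16, adjusted p = 0.0198). Gstt3 read 69.6, 67.0 and 83.3 CPM at 6 °C, 39.4 and 42.2 CPM at 22 °C and 39.2, 20.7 and 33.9 CPM at 29 °C (log2 change -1.23, SE 0.21, adjusted p = 0.0288). The call of Gstk1 was lost without library 4 (0.0635), 10 (0.0679), 11 (0.0667) or 12 (0.0506), by adjusted p from edgeR. That of Gstt3 was lost without library 2, 3, 4, 10, 11 or 12 (adjusted p of up to 0.110). It was also lost in all 12 libraries without a term for H2-Ea-ps. In the clock list, library 3 was low for Arntl, the positive arm of the clock, at 10.2 CPM against 25.1 to 67.7 CPM in the other 7, and 0 of 21 clock genes were called in the trend by edgeR, with 2 at an unadjusted p under 0.05 and 1 each by DESeq2 and limma-voom.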
